A study of Homo sapiens with 12 samples.

Results

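The genes described here are 10 transcription regulators of the B lineage: PAX5, EBF1, TCF3, TCF4, SPIB, POU2F2, BACH2, BCL6, IKZF1 and ID3. They were chosen by name, and every probe set that named them was taken, which gave 52 of the 54675 probe sets on the array and 10 of the 19775 genes that could be named. RNA came from Rec-1, SP-49 and Mino, human cell lines established from mantle cell lymphoma, a cancer of mature B cells. Cells of each line received either compound E at 1 µM, which inhibits gamma-secretase (the GSI group), or 0.1% DMSO, its solvent (the Mock group), for 24 h. Gamma-secretase releases the active intracellular part of Notch receptors, and its inhibitors therefore stop Notch signalling. Each of the 6 groups had 2 Affymetrix arrays, 12 in all. Rec-1 and SP-49 were grown with 10% serum and Mino with 15%, so serum and line cannot be told apart for Mino. Whether the arrays of a group came from separate cultures is not given in the sources used here, and p-values therefore reflect array-to-array spread alone, which may be technical.

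B-cell identity is built by a small network of transcription factors. The E proteins, of which TCF3 (which encodes E12 and E47) and TCF4 (E2-2, not the Wnt factor TCF7L2) are members here, act with EBF1 to open the B-cell programme, and PAX5 then holds cells to it. IKZF1 encodes Ikaros, a zinc-finger factor needed for lymphoid development. SPIB is an ETS-family factor and POU2F2 encodes OCT2, which binds the octamer of immunoglobulin promoters. BCL6 and BACH2 are repressors that hold back plasma-cell differentiation, and ID3 is an inhibitor that binds E proteins and keeps them off DNA.

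By the brightest probe set, ID3 had the largest GSI minus Mock difference of the 10 members in Rec-1 and BCL6 the largest in SP-49, so the 250 bases before their start sites are printed. The sequences are RefSeq's on GRCh38.p14, written from 5′ to 3′ on the gene's strand and ending at the base before the outermost annotated start, and all 10 members matched. Capitals mark matches to TTCNNNGAA, a palindrome of the form read by STAT factors and, in part, by BCL6 itself. The last 5 capitals of the BCL6 sequence begin a match that runs past the start site.
ID3 promoter, chr1:23559502-23559751, minus strand: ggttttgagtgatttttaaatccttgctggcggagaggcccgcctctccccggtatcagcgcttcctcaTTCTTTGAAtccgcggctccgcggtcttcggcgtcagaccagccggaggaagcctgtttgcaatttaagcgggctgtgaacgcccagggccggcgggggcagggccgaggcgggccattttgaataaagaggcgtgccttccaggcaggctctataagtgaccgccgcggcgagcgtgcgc
BCL6 promoter, chr3:187745469-187745718, minus strand: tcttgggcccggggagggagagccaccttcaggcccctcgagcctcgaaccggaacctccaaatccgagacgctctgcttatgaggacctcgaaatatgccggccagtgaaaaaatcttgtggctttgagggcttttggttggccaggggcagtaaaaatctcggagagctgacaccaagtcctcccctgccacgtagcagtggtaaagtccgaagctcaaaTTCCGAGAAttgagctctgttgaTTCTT
ID3 itself lies at chr1:23557926-23559501 and BCL6 at chr3:187721377-187745468 in the same build.

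Windows, 1 per gene, ran from 250 bases before to 50 after the outermost start that came with a sequence. For EBF1, IKZF1 and POU2F2 the window lay inside the annotated gene, POU2F2's ending at chr19:42132696 and the gene at 42197936. TTCNNNGAA was found in 2 of the 10 members and in 7.88% of 27305 promoters. ID3 had 1 match and BCL6 had 4, a number reached in 0.0183% of all promoters. That cut-off of 4 is BCL6's own count, so the share is descriptive and no test of enrichment. The E-box CANNTG, the general form read by E proteins, was found in 6 of the 10 members and in 69.0% of all promoters. Of its narrower forms, which overlap it, CAGCTG was found in 2 members and 17.7% of promoters, and CAGGTG in none of the members and 20.6% of promoters. The octamer ATTTGCAT was in 0 of 10 members and 1.82% of promoters. TGGGAA, a core read by Ikaros and by the Notch partner RBPJ, was in EBF1 and IKZF1, 2 of 10 members, against 24.4% of promoters. All motifs were searched on both strands, and the matches describe letters only.

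Values are the deposited log2 signals, between 0.58 and 12.78 (median 1.99), and a difference of 1 is a 2-fold change. Arrays of 1 line correlated at 0.979 to 0.995 over all probe sets and arrays of different lines at 0.932 to 0.953. The second GSI arrays of Rec-1 and SP-49 had the narrowest spread of signals (SD 1.95 and 2, against 2.01 to 2.05 on the other 10). As a check of the inhibitor, HES1, a direct Notch target, fell by 3.80 in Rec-1 and by 3.51 in SP-49 (limma adjusted p = 5.96e-06 and 2.11e-05), and it differed by -0.07 in Mino (adjusted p = 1). Of the marker lists, the number of genes that stayed under the median signal of 1.99 on all 12 arrays was 0 of 7 for B cells, 1 of 8 for T cells, 2 of 6 for NK cells, 5 of 7 for myeloid cells, 0 of 6 for plasmacytoid dendritic cells, 2 of 6 for stroma and 0 of 6 for epithelium.

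Several summed marker signals (log2) separated the GSI from the Mock arrays, and they stand beside every result that follows. Such separation was common among single probe sets. Both GSI arrays lay above both Mock arrays for 20.7% of them in Rec-1, 17.5% in SP-49 and 15.3% in Mino. The B-cell list holds CD79B, which was called higher in Rec-1 (1.06, limma adjusted p = 0.00121) and returns below among target genes. The B-cell sum was 53.1 to 53.8 on Rec-1 GSI arrays against 51.1 on both Mock arrays, 54.6 to 55.1 on SP-49 GSI arrays against 53.3 on both Mock arrays, and 49.5 to 50.3 on Mino GSI arrays against 50.4 to 51.1 on Mock arrays. The T-cell sum was 18.86 and 18.50 on Rec-1 GSI arrays against 19.17 and 21.66 on Mock arrays, the highest being the second Rec-1 Mock array, and 17.1 on both SP-49 GSI arrays against 16.2 to 16.6 on Mock arrays. The T-cell gene CD3D was called lower with GSI in Rec-1 (-0.63, limma adjusted p = 0.0357), a call lost on leaving out 1 array in 9 of 12 cases, up to 0.171 without the first Rec-1 Mock array. The T-cell sums of Mino overlapped.

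The myeloid sum was higher with GSI in each line, at 11.17 and 11.50 against 10.47 and 11.05 in Rec-1, 10.84 and 11.20 against 9.80 and 10.11 in SP-49, and 10.86 and 11.29 against 10.75 and 10.80 in Mino. The epithelial sum of SP-49 was 12.23 and 12.49 with GSI against 14.34 and 13.88 with Mock. CDH1, an epithelial cadherin gene on that list, was called lower there (-1.73, limma adjusted p = 0.0298), a call lost on leaving out 1 array in 9 of 12 cases, up to 0.329 without the second SP-49 GSI array. The stromal sum of Rec-1 was 13.83 and 14.36 with GSI against 13.70 and 13.37 with Mock. In Mino the NK sum was 10.93 and 11.27 with GSI against 10.72 and 10.81 with Mock, and the dendritic sum 17.68 and 17.67 against 18.02 and 18.25. The other sums overlapped between GSI and Mock.

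Of the signs of RNA integrity, the 3′ minus 5′ signal of GAPDH was 0.59 and 0.49 on Rec-1 GSI arrays against 0.41 and 0.37 on Rec-1 Mock arrays, with 0.35 and 0.44 against 0.35 and 0.34 in SP-49 and 0.31 and 0.39 against 0.26 and 0.25 in Mino. That of ACTB overlapped in Rec-1, at 2.29 and 1.92 with GSI against 2 and 1.83 with Mock, and in SP-49, at 2.30 and 2.16 against 2.29 and 2.36. In Mino it was 2 and 1.94 with GSI against 1.73 and 1.79 with Mock. The part of these markers and ratios in the results was not tested.

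The first comparison asked which of the 10 factors changed when Notch signalling was blocked. By the brightest probe set 1 passed the test: ID3, higher with GSI in Rec-1. A member without a call is not thereby shown to be unchanged. TCF4 and POU2F2 each had 1 further probe set called higher in Rec-1, on 1 of 8 and 1 of 7 probe sets. No member probe set was called lower in any line. A probe set is called where limma's p, adjusted by the Benjamini-Hochberg method over all 54675 probe sets, is under 0.05. In Rec-1 3 of the 52 member probe sets were higher with GSI and 0 were lower, where 0.977% of all probe sets were called higher and 2.15% lower. By the brightest probe set of each gene, the one with the highest mean over all arrays, 1 of the 10 genes was called, against 4.62% of all genes. In SP-49 0 of 52 probe sets and 0 of 10 genes were called, where 0.0494% of all probe sets and 0.086% of all genes were. In Mino 0 of 52 and 0 of 10 were called, and 0% of all probe sets. At an unadjusted p under 0.05, 21 member probe sets passed in Rec-1, 12 in SP-49 and 6 in Mino, where 15.4%, 7.39% and 4.98% of all probe sets did. These are repeated readings of 10 genes, 14 of them of TCF3 and 8 of TCF4, and are not independent. By the brightest probe set 5, 4 and 1 of the 10 genes passed so, beside 19.3%, 8.9% and 4.96% of all genes. The median difference of the 10 genes was 0.00 in Rec-1, 0.04 in SP-49 and 0.03 in Mino, beside 0.012, -0.019 and -0.004 over all genes. Since these are bulk RNA samples, a lower signal from fewer expressing cells cannot be told apart from less RNA per cell.

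**Figure D1:**
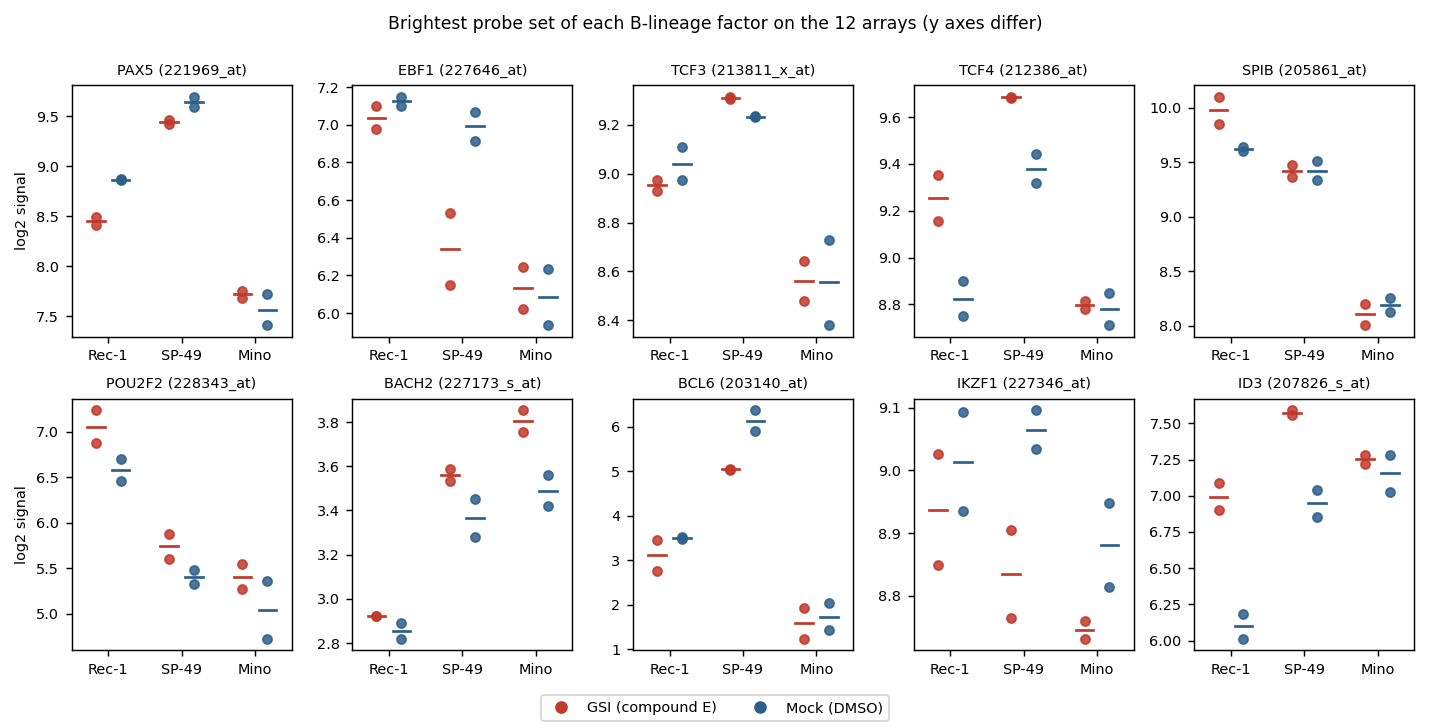
Log2 signal of the brightest probe set of each of the 10 genes, 1 point per array, with GSI arrays left of Mock arrays in each line and a bar at each group mean. ID3 sits at 6.90 and 7.09 on the Rec-1 GSI arrays, above both Rec-1 Mock arrays, while the widest gaps in the panels are between lines.

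ID3 was the member that passed the test. Its only probe set, 207826_s_at, read 7.09 and 6.90 on the Rec-1 GSI arrays and 6.19 and 6.01 on the Rec-1 Mock arrays. In SP-49 it read 7.59 and 7.56 with GSI and 6.86 and 7.04 with Mock. In Mino it read 7.22 and 7.28 with GSI and 7.03 and 7.28 with Mock. Every GSI array lay above every Mock array in Rec-1 and in SP-49, and the groups overlapped in Mino. ID3 rose 1.86-fold in Rec-1 (log2 0.90, 95% interval 0.59 to 1.20, limma adjusted p = 0.00548). The difference in SP-49 was 0.63 (1.54-fold, interval 0.32 to 0.93) and did not pass over all probe sets (adjusted p = 0.188), and in Mino it was 0.10 (interval -0.21 to 0.40, adjusted p = 1). The Rec-1 call rested on the second Rec-1 Mock array, the one with the highest T-cell marker sum: without it the adjusted p was 0.0634, and the difference stayed between 0.80 and 0.99 when any 1 of the 12 arrays was left out. It was also lost when the fit held only the 4 Rec-1 arrays (adjusted p = 0.123).

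TCF4 and TCF3 encode E proteins, to which ID3 binds. TCF4 read 9.35 and 9.16 by its brightest probe set, 212386_at, on Rec-1 GSI arrays against 8.90 and 8.75 on Mock arrays. In SP-49 it read 9.69 and 9.68 with GSI against 9.32 and 9.44 with Mock. The Mino GSI arrays read 8.78 and 8.82 and the Mock arrays 8.71 and 8.85. The groups did not overlap in Rec-1 or SP-49 and overlapped in Mino. The differences were 0.43 in Rec-1 (interval 0.15 to 0.71, limma adjusted p = 0.11), 0.30 in SP-49 (adjusted p = 0.635) and 0.02 in Mino (adjusted p = 1).

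The other 7 TCF4 probe sets gave a like picture in Rec-1, where the 8 differences ran from 0.34 to 0.55. In all 8 both GSI arrays lay above both Mock arrays, as they did for 20.7% of all probe sets. The 8 probe sets read RNA of 1 gene and are not replicates. In SP-49 both GSI arrays were above both Mock arrays for 7 of the 8 (17.5% of all probe sets) and below them for 228837_at, the dimmest. In Mino 1 of the 8 was above (15.3% of all probe sets). The TCF4 probe set that passed, 222146_s_at, read 7.28 and 7.34 on Rec-1 GSI arrays and 6.67 and 6.84 on Mock arrays. It rose by 0.55 in Rec-1 (interval 0.29 to 0.82, limma adjusted p = 0.0301). In SP-49 it read 8.004 and 8.066 with GSI and 7.47 and 7.44 with Mock, a difference of 0.58 (interval 0.32 to 0.85, adjusted p = 0.148). The Rec-1 call was lost on leaving out 1 array in 5 of 12 cases, at most at an adjusted p of 0.203 without the first Rec-1 Mock array.

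TCF3 had 14 probe sets, 6 of them of the _x_at kind that can hybridise with related transcripts, and its brightest, 213811_x_at, moved little. It read 8.93 and 8.97 on Rec-1 GSI arrays against 8.97 and 9.11 on Mock arrays, a difference of -0.09. The SP-49 and Mino differences were 0.08 and 0.01. Across the 14, the Rec-1 differences ran from -0.90 for 209151_x_at (limma adjusted p = 0.0527) to 0.63 for 213731_s_at (adjusted p = 0.0815). Those ends of the range have opposite signs, and 0 of the 14 passed in any line. In SP-49 7 of the 14 lay above both Mock arrays and 1 below (17.5% and 22.5% of all probe sets), with differences no larger than 0.23 upwards and 0.30 downwards. In Mino the differences ran from -0.81 to 0.35. The lowest was that of 216645_at, at 3.60 and 3.38 on Mino GSI arrays against 4.34 and 4.25 on Mock arrays (limma adjusted p = 0.408, which no probe set undercut in Mino).

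**Figure D2:**
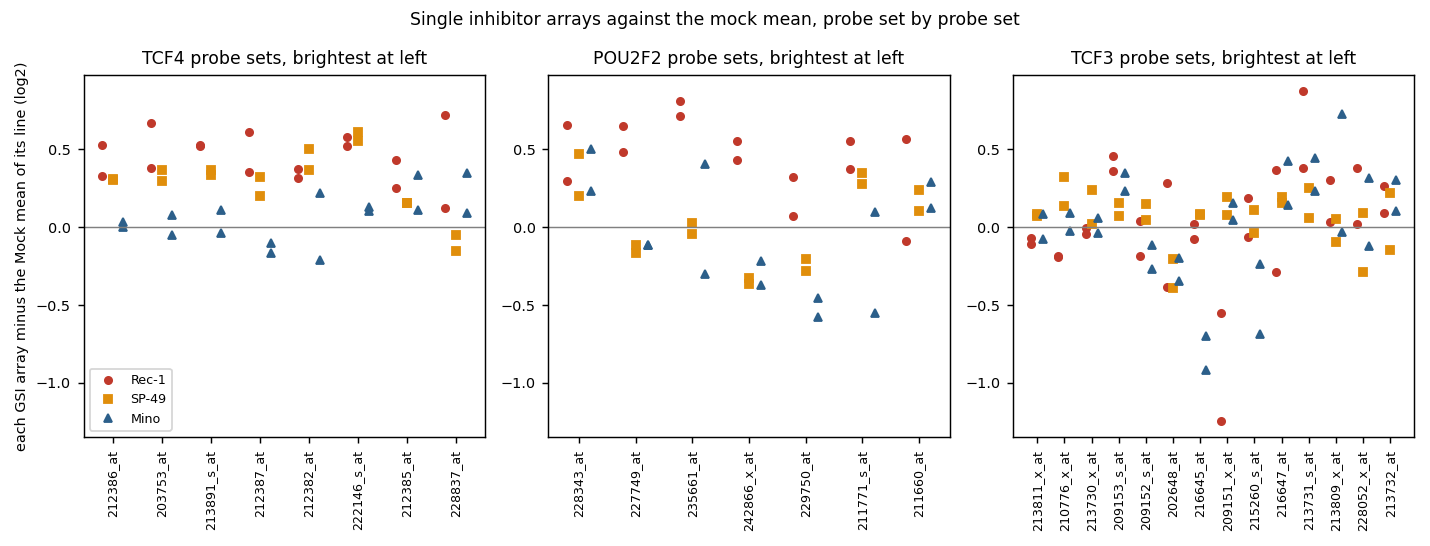
Each GSI array minus the Mock mean of its line (log2) for every probe set of TCF4, POU2F2 and TCF3, brightest at the left of each panel, with Rec-1, SP-49 and Mino as circles, squares and triangles. The 16 Rec-1 points of TCF4 all lie above 0, while the TCF3 probe sets scatter on both sides.

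PAX5 and EBF1, the factors that set and hold the B-cell programme, did not pass in any line. PAX5 read 8.42 and 8.49 by 221969_at on Rec-1 GSI arrays against 8.86 and 8.87 on Mock arrays. In SP-49 it read 9.42 and 9.46 with GSI against 9.59 and 9.70 with Mock, and the Mino values were 7.75 and 7.68 with GSI and 7.41 and 7.72 with Mock. GSI arrays lay below Mock arrays in Rec-1 and SP-49 and overlapped them in Mino. The differences were -0.41 in Rec-1 (interval -0.70 to -0.12, limma adjusted p = 0.139), -0.21 in SP-49 (adjusted p = 0.838) and 0.15 in Mino (adjusted p = 1). The other PAX5 probe set, 206802_at, was dim (mean 2.91) and correlated at -0.62 with the bright one over the 12 arrays.

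EBF1 read 6.53 and 6.15 by 227646_at on SP-49 GSI arrays against 6.92 and 7.07 on Mock arrays. In Rec-1 it read 7.10 and 6.98 with GSI against 7.15 and 7.10 with Mock, and the Mino values were 6.02 and 6.24 with GSI and 5.94 and 6.23 with Mock. The SP-49 groups were well apart, the Rec-1 groups only just, and the Mino groups overlapped. The SP-49 difference was -0.65 (interval -1.01 to -0.30, limma adjusted p = 0.263), beside -0.09 in Rec-1 and 0.05 in Mino. The second-brightest EBF1 probe set, 232204_at, differed by -0.77 there (adjusted p = 0.313). In 3 of the 4 EBF1 probe sets both SP-49 GSI arrays lay below both Mock arrays (22.5% of all probe sets). Lower signals with GSI were not confined to SP-49. In Mino 232204_at differed by -0.22, and the dim 229487_at by -0.56, beside -0.48 in SP-49 and -0.27 in Rec-1, and none of these passed.

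IKZF1 did not pass in any line. By its brightest probe set, 227346_at, it read 9.03 and 8.85 on Rec-1 GSI arrays against 9.09 and 8.94 on Mock arrays. The SP-49 arrays read 8.90 and 8.76 with GSI and 9.03 and 9.10 with Mock, and those of Mino 8.76 and 8.73 with GSI and 8.81 and 8.95 with Mock. The groups overlapped in Rec-1, and GSI arrays were the lower in SP-49 and Mino. The differences were -0.08, -0.23 and -0.13, with limma adjusted p of 0.85, 0.787 and 1. Its 9 probe sets ran from -0.41 to 0.04 in Rec-1, and 0 passed.

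SPIB and POU2F2, which act in mature B cells, had positive differences by every probe set in Rec-1. SPIB read 9.85 and 10.10 by 205861_at on Rec-1 GSI arrays against 9.64 and 9.61 on Mock arrays, and the groups did not overlap. The difference was 0.35 (interval 0.05 to 0.66, limma adjusted p = 0.245), with 0.45 by the other probe set. In SP-49 SPIB read 9.37 and 9.48 with GSI against 9.51 and 9.33 with Mock, and the Mino values were 8.01 and 8.20 with GSI and 8.12 and 8.26 with Mock. Both of those pairs overlapped, and the differences were 0.00 and -0.09.

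POU2F2 read 6.88 and 7.24 by its brightest probe set, 228343_at, on Rec-1 GSI arrays against 6.46 and 6.70 on Mock arrays. In SP-49 the GSI arrays read 5.61 and 5.88 and the Mock arrays 5.33 and 5.48. The Mino GSI arrays read 5.27 and 5.54 and the Mock arrays 4.72 and 5.36. GSI arrays were the higher in Rec-1 and SP-49, and the Mino groups overlapped. The differences were 0.48, 0.34 and 0.37, with limma adjusted p of 0.311, 0.836 and 1. The POU2F2 probe set that passed, 227749_at, read 6.23 and 6.07 on Rec-1 GSI arrays against 5.59 and 5.57 on Mock arrays, and it rose by 0.57 in Rec-1 (interval 0.28 to 0.86, adjusted p = 0.0403). It differed by -0.14 in SP-49 (adjusted p = 0.922) and -0.12 in Mino (adjusted p = 1), opposite in sign to the brightest probe set there. That call was lost on leaving out 1 array in 10 of 12 cases, up to an adjusted p of 0.183 without the second Rec-1 Mock array. Over the 7 POU2F2 probe sets, 5 had both Rec-1 GSI arrays above both Mock arrays (20.7% of all probe sets). In SP-49 2 of the 7 were above and 3 below (17.5% and 22.5% of all probe sets), with differences from -0.35 to 0.34. In Mino 0 of the 7 were above (15.3% of all probe sets), and the differences ran from -0.52 to 0.37. The sign in these 2 lines thus depended on the probe set.

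**Figure D3:**
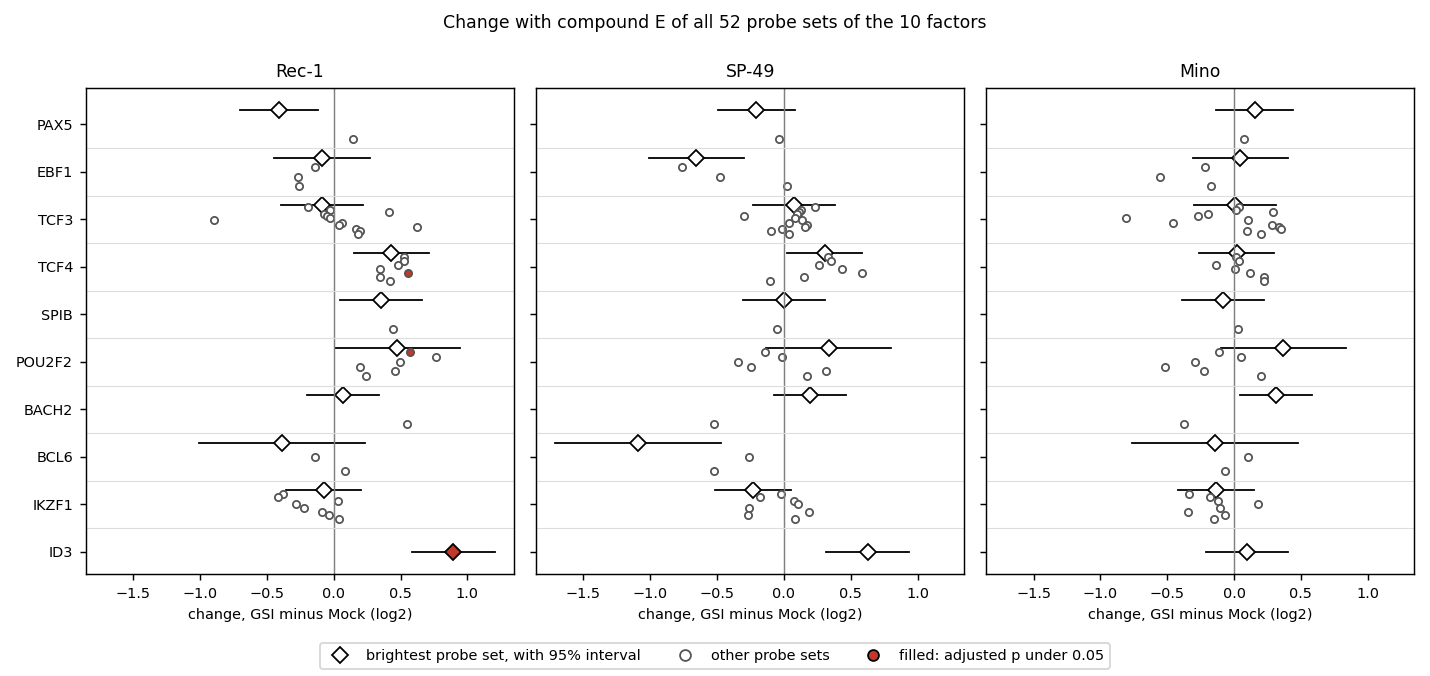
GSI minus Mock (log2) in Rec-1, SP-49 and Mino, 1 panel each, for all 52 probe sets, with diamonds and limma's 95% intervals (not adjusted for the number of probe sets) for the brightest probe set of each gene, circles for the others, and filled marks for adjusted p under 0.05. The 3 filled marks, of ID3, TCF4 and POU2F2, are all in Rec-1, and the BCL6 diamond of SP-49 lies lowest, at -1.09.

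Of the repressors, BCL6 showed the widest difference of all members, in SP-49, where it did not pass. By 203140_at it read 5.06 and 5.03 on SP-49 GSI arrays against 5.90 and 6.36 on Mock arrays. In Rec-1 it read 3.46 and 2.76 with GSI against 3.49 and 3.52 with Mock, and the Mino values were 1.23 and 1.94 with GSI and 1.42 and 2.03 with Mock. GSI arrays lay below Mock arrays in SP-49 and, by a narrow margin on 1 array, in Rec-1, and the Mino signals overlapped under or about the median probe set. The SP-49 difference was -1.09 (2.13-fold, interval -1.71 to -0.47, limma adjusted p = 0.287), that in Rec-1 was -0.39 (adjusted p = 0.585) and that in Mino -0.14 (adjusted p = 1). All 3 BCL6 probe sets had both SP-49 GSI arrays below both Mock arrays (22.5% of all probe sets), and 215990_s_at, at 1.98 and 2.14 with GSI against 2.47 and 2.69 with Mock, differed by -0.52 (adjusted p = 0.375).

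BACH2 was dim, and its 2 probe sets disagreed. The brighter, 227173_s_at, read 2.92 and 2.92 on Rec-1 GSI arrays against 2.89 and 2.82 on Mock arrays. The SP-49 arrays read 3.59 and 3.53 with GSI and 3.45 and 3.28 with Mock, and those of Mino 3.85 and 3.75 with GSI and 3.42 and 3.56 with Mock. GSI arrays were the higher in each line, by differences of 0.07, 0.19 and 0.31 (limma adjusted p = 0.862, 0.835 and 0.975). The other, 221234_s_at, differed by 0.55 in Rec-1, -0.52 in SP-49 and -0.38 in Mino (adjusted p = 0.251, 0.634 and 1). Its sign was thus opposite to that of the brighter probe set in SP-49 and Mino.

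Whether the lines responded differently was tested as the difference of their GSI minus Mock differences. None of the 52 probe sets passed: 0 of 52 for Rec-1 minus SP-49, where 0.201% of all probe sets did, 0 of 52 for Rec-1 minus Mino (0.587%) and 0 of 52 for SP-49 minus Mino (0.0219%). At an unadjusted p under 0.05, 9, 17 and 5 of the 52 passed, where 8.96%, 11.5% and 6.34% of all probe sets did. Several of the 52 read the same gene. By the brightest probe set 1, 4 and 3 of the 10 genes passed so, beside 11%, 14.2% and 7.26% of all genes. For ID3 the Rec-1 change exceeded the Mino change by 0.80 (interval 0.36 to 1.23, limma adjusted p = 0.115) and the SP-49 change by 0.27 (interval -0.16 to 0.71, adjusted p = 0.762). The ID3 response in Rec-1 is therefore not shown to differ from that in either other line. For POU2F2 227749_at the differences were 0.71 between Rec-1 and SP-49 (interval 0.30 to 1.12, adjusted p = 0.227) and 0.69 between Rec-1 and Mino (interval 0.28 to 1.09, adjusted p = 0.15). For BCL6 the SP-49 minus Mino difference was -0.95 (interval -1.83 to -0.07, adjusted p = 0.756). For EBF1 it was -0.70 (interval -1.21 to -0.20, adjusted p = 0.641).

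The Mock arrays gave the levels of the factors in the 3 lines without inhibitor, and here most members differed. By the brightest probe set, PAX5, SPIB, EBF1 and BCL6 were lowest in Mino, ID3 and BACH2 were lowest in Rec-1, and IKZF1 did not pass in any pair. Between Rec-1 and Mino 19 of 52 probe sets passed, 14 higher in Rec-1 and 5 lower, where 8.19% of all probe sets were higher and 8.63% lower. By brightest probe set that was 8 of 10 genes, 6 higher and 2 lower, against 11.7% and 12.5% of all genes. Between SP-49 and Mino 26 of 52 passed, 21 higher and 5 lower in SP-49 (9.05% and 7.95% of all probe sets), and 6 of 10 genes, all 6 higher (13.1% and 11% of all genes called higher and lower). Between Rec-1 and SP-49 20 of 52 passed, 6 higher and 14 lower in Rec-1 (8.81% and 10.3%), and 6 of 10 genes, 1 higher and 5 lower (12.2% and 15%). The median of the 10 genes was 0.76, 0.64 and -0.35 in these pairs, beside 0.01, -0.035 and 0.044 over all genes. The counts of probe sets lean on TCF3 and TCF4, which hold 14 and 8 of the 52.

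**Figure D4:**
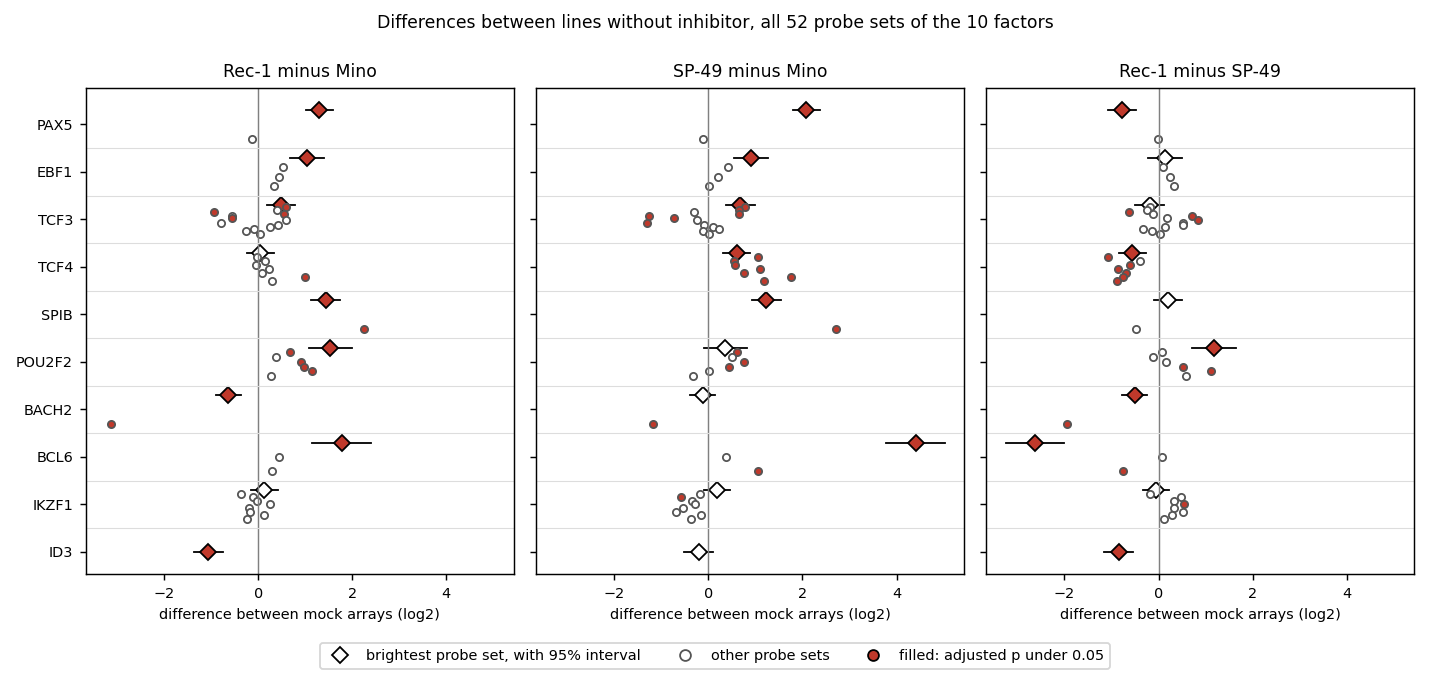
Differences between the Mock arrays of Rec-1 and Mino, SP-49 and Mino, and Rec-1 and SP-49 (log2, 1 panel each) for all 52 probe sets, with diamonds and limma's 95% intervals for the brightest probe set of each gene, circles for the others, and filled marks for adjusted p under 0.05. The BCL6 diamond lies at 4.40 for SP-49 minus Mino, and the IKZF1 diamonds lie within 0.18 of 0.

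BCL6 spread most. Its Mock means were 3.50 ± 0.02 in Rec-1, 6.13 ± 0.33 in SP-49 and 1.73 ± 0.43 in Mino (SD, n = 2 arrays each). Rec-1 was above Mino by 1.77 (3.42-fold, limma adjusted p = 0.000798), SP-49 was above Mino by 4.40 (21.2-fold, adjusted p = 6.13e-07), and Rec-1 was below SP-49 by 2.63, a log2 difference of -2.63 (adjusted p = 3.13e-05). The Mino signal lies at the low end of the scale, so the folds against it are uncertain. By this probe set the order was SP-49, Rec-1, Mino, with each neighbour pair past the test. Of the 3 BCL6 probe sets, 1 was called higher in Rec-1 than in Mino and 2 were called lower in Rec-1 than in SP-49. The dimmer BCL6 probe set 215990_s_at also put SP-49 above Mino, by 1.05 (adjusted p = 0.000415).

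PAX5 followed the same order. Its Mock means were 8.87 ± 0.01 in Rec-1, 9.64 ± 0.08 in SP-49 and 7.56 ± 0.22 in Mino (SD, n = 2 arrays each). Rec-1 exceeded Mino by 1.30 (2.47-fold, limma adjusted p = 2.51e-05), SP-49 exceeded Mino by 2.08 (4.23-fold, adjusted p = 5.71e-07), and Rec-1 minus SP-49 was -0.78 (adjusted p = 0.00106). Each neighbour in the order differed. The dim probe set 206802_at did not show this order. It gave -0.14, -0.12 and -0.01 in the same pairs (adjusted p = 0.663, 0.696 and 0.971). The GSI minus Mock differences of PAX5, the largest of which was -0.41, were small beside the gap between lines.

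By the brightest probe set, EBF1 and SPIB were both high in Rec-1 and SP-49 and low in Mino. EBF1 averaged 7.13 ± 0.03 in Rec-1, 6.99 ± 0.11 in SP-49 and 6.09 ± 0.21 in Mino Mock arrays. It was 1.04 higher in Rec-1 and 0.91 higher in SP-49 than in Mino (limma adjusted p = 0.000692 and 0.0018), and Rec-1 minus SP-49 was 0.13 (interval -0.22 to 0.49, adjusted p = 0.704). Of the 4 EBF1 probe sets, only 1 was called against Mino in either pair. The second-brightest, 232204_at, gave 0.52 for Rec-1 and 0.41 for SP-49 against Mino (limma adjusted p = 0.132 and 0.246). SPIB was 1.43 higher in Rec-1 and 1.23 higher in SP-49 than in Mino (adjusted p = 1.83e-05 and 6.13e-05), with 0.20 between Rec-1 and SP-49 (adjusted p = 0.425). Its second probe set, 232739_at, gave 2.25 and 2.72 against Mino (adjusted p = 3.02e-06 and 6.4e-07). Rec-1 and SP-49 thus did not pass against each other for either gene.

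POU2F2 stood highest in Rec-1 by its brightest probe set. By 228343_at Rec-1 exceeded Mino by 1.54 (2.90-fold, limma adjusted p = 0.000288) and SP-49 by 1.17 (adjusted p = 0.00168), and SP-49 minus Mino was 0.36 (interval -0.10 to 0.83, adjusted p = 0.341). Of its 7 probe sets, 5 were called higher in Rec-1 than in Mino, 3 higher in SP-49 than in Mino and 3 higher in Rec-1 than in SP-49, and 0 were called lower in any of these pairs. By 235661_at Rec-1 minus SP-49 was -0.11 (adjusted p = 0.809). The SP-49 minus Mino calls of 229750_at and 227749_at were lost on leaving out 1 array in 10 and 2 of 12 cases. The Rec-1 minus SP-49 call of 229750_at was lost in 2.

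For the E proteins, TCF4 was highest in SP-49 and TCF3 depended on the probe set. All 8 TCF4 probe sets were called higher in SP-49 than in Mino, by 0.55 to 1.76, and 7 of the 8 were called lower in Rec-1 than in SP-49. By the brightest one SP-49 exceeded Mino by 0.60 (limma adjusted p = 0.00602) and Rec-1 minus SP-49 was -0.56 (adjusted p = 0.00848), while Rec-1 minus Mino was 0.05 (adjusted p = 0.907). Of the 8, 1 probe set, 212385_at, was called higher in Rec-1 than in Mino, by 1.00 (adjusted p = 0.000305), and it kept that call whichever array was left out. These calls of the brightest probe set were each lost on leaving out 1 array in 2 of 12 cases, up to adjusted p of 0.0651 and 0.0834, both without the second SP-49 Mock array.

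The brightest TCF3 probe set, 213811_x_at, was 0.49 higher in Rec-1 and 0.68 higher in SP-49 than in Mino (limma adjusted p = 0.033 and 0.00482). Those calls were lost on leaving out 1 array in 5 and 1 of 12 cases, the first Mino Mock array among them for both. The differences then ran from 0.31 to 0.66 and from 0.50 to 0.85. A bright probe set of the more specific _s_at kind, 209153_s_at, correlated with it at -0.54 over the 12 arrays and put Rec-1 0.94 below Mino, a difference of -0.94 (adjusted p = 0.000152). Of the 14 TCF3 probe sets, 3 were called higher and 2 lower in Rec-1 than in Mino, and 4 higher and 3 lower in SP-49 than in Mino. The mean of the 14 gave -0.07 for SP-49 minus Mino (adjusted p = 0.694), and no single order of the lines can be given for TCF3.

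ID3 and BACH2 were low in Rec-1. ID3 averaged 6.10 ± 0.12 in Rec-1, 6.95 ± 0.13 in SP-49 and 7.16 ± 0.18 in Mino Mock arrays (SD, n = 2 arrays each). Rec-1 was lower than Mino by 1.06, a difference of -1.06 (limma adjusted p = 0.000207), and than SP-49 by 0.85, a difference of -0.85 (adjusted p = 0.00085), while SP-49 minus Mino was -0.21 (interval -0.51 to 0.10, adjusted p = 0.432). The Rec-1 Mock arrays also enter the GSI minus Mock difference of ID3 in Rec-1.

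BACH2 read -0.64 in Rec-1 minus Mino and -0.51 in Rec-1 minus SP-49 by 227173_s_at (limma adjusted p = 0.00318 and 0.0108), and -0.12 in SP-49 minus Mino (adjusted p = 0.631). The gap between Rec-1 and SP-49 was lost on leaving out 1 array in 2 of 12 cases, up to an adjusted p of 0.113 without the first SP-49 Mock array. The other probe set, 221234_s_at, gave wider gaps, with Mock signals of 1.65 and 1.65 in Rec-1, 3.88 and 3.32 in SP-49 and 4.73 and 4.82 in Mino. None of the lines overlapped. Its differences were -3.13 for Rec-1 minus Mino, -1.18 for SP-49 minus Mino and -1.95 for Rec-1 minus SP-49 (adjusted p = 1.24e-06, 0.00239 and 4.62e-05), and the Rec-1 signal was under the median probe set.

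IKZF1 did not pass by its brightest probe set, although the mean of its probe sets put SP-49 below Mino (-0.33, limma adjusted p = 0.0253). The brightest gave differences of 0.13, 0.18 and -0.05 (intervals -0.15 to 0.42, -0.10 to 0.47 and -0.33 to 0.23, limma adjusted p = 0.631, 0.451 and 0.874). Among its 9 probe sets, 227344_at was called lower in SP-49 than in Mino, by -0.59 (adjusted p = 0.0299), and 1565818_s_at was called higher in Rec-1 than in SP-49, by 0.53 (adjusted p = 0.0244). Each of these was lost on leaving out 1 array in 4 of 12 cases, up to adjusted p of 0.175 without the second Mino Mock array and 0.179 without the first SP-49 Mock array.

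Lists of genes that work with or under these factors were taken from textbook knowledge, and they share genes with the members and with each other. Among 27 measured targets of PAX5, EBF1 and the E proteins, 3 rose and 1 fell in Rec-1 with GSI, where 1.67% of all genes rose and 2.95% fell. Their median was 0.03, beside 0.012 over all genes. The risers were CD79B, a signalling chain of the B-cell receptor, by 1.06 (limma adjusted p = 0.00121), CD72 by 0.73 (adjusted p = 0.0199) and CD37 by 0.69 (adjusted p = 0.0362). CR2, the complement receptor CD21 and a known Notch target, fell by 3.14 in Rec-1 and by 2.75 in SP-49 (adjusted p = 5.96e-06 for Rec-1 and 2.18e-05 for SP-49). It was the 1 of these 27 that passed in SP-49, where 0.086% of all genes did. The CD72 and CD37 calls were lost on leaving out 1 array in 3 and 7 of 12 cases, at most at adjusted p of 0.155 without the second and 0.23 without the first Rec-1 Mock array.

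Among 20 measured genes that BCL6 is known to repress, 3 rose and 0 fell in Rec-1 with GSI (median 0.22). Over all genes 1.67% rose and 2.95% fell there. In SP-49, the line with the highest BCL6 signal, 0 passed (median -0.07), where 0.086% of all genes did. GPR183, a receptor that guides B cells within follicles, rose by 1.19 in Rec-1 (limma adjusted p = 0.00273), and BCL2, which protects cells from apoptosis, by 1.05 (adjusted p = 0.00297). CDKN1B, a cell-cycle inhibitor, rose by 0.50 (adjusted p = 0.0415), a call lost whichever of the 12 arrays was left out. On Mock arrays 12 of the 20 were higher and 0 lower in SP-49 than in Mino (median 0.76), and 0 were higher and 14 lower in Rec-1 than in SP-49 (median -0.70). Over all genes, 13.1% were higher and 11% lower in SP-49 than in Mino, and 12.2% higher and 15% lower in Rec-1 than in SP-49. In Rec-1 minus Mino the 20 split 6 higher and 7 lower (median -0.03), beside 11.7% and 12.5% of all genes. BCL6 itself was higher in SP-49 than in Mino, lower in Rec-1 than in SP-49 and higher in Rec-1 than in Mino.

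Of 29 other B-lineage factors measured, 1 rose and 1 fell in Rec-1 (median 0.10), where 1.67% of all genes rose and 2.95% fell. MEF2C, which acts downstream of the B-cell receptor, rose by 0.69 (limma adjusted p = 0.0365), a call lost on leaving out 1 array in 9 of 12 cases, up to 0.256 without the second Rec-1 Mock array. RUNX3, a Runt-family factor, fell by 0.89 (adjusted p = 0.00234), differed by 0.09 in SP-49 (adjusted p = 0.963) and kept its Rec-1 call whichever of the 12 arrays was left out. None of the 29 passed in SP-49 (median 0.09), where 0.086% of all genes did. Among the 7 genes of the ID and E protein list, ID3 was the 1 that passed in Rec-1 (median 0.25), and 0 passed in SP-49 (median -0.02). Of all genes 4.62% passed in Rec-1 and 0.086% in SP-49. ID1 differed by -1.01 in Rec-1 and -1.62 in SP-49 (adjusted p = 0.0906 and 0.0956), opposite in sign to ID3, and ID2 by 0.25 and -0.38 (adjusted p = 0.54 and 0.659).

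Of 12 measured genes of the BACH2, BLIMP1 and IRF4 circuit, 2 rose and 0 fell in Rec-1 (median -0.01). There 1.67% of all genes rose and 2.95% fell. JCHAIN, the joining chain of secreted immunoglobulin, rose by 1.56 (limma adjusted p = 0.00088), and HMOX1, a BACH-repressed haem oxygenase gene, by 0.77 (adjusted p = 0.0453). The HMOX1 call was lost on leaving out 1 array in 10 of 12 cases, up to 0.302 without the second Rec-1 Mock array. None of the 12 passed in SP-49 (median 0.03), where 0.086% of all genes did. The 11 genes known to depend on OCT2, its cofactor or SPIB had 0 calls in Rec-1 and SP-49 (medians 0.05 and 0.00). So had the 15 Ikaros relatives and chromatin partners (medians -0.02 and -0.09). In these lines 4.62% and 0.086% of all genes were called. In Mino 0 genes of any of these 7 lists passed, where 0% of all genes did.

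On Mock arrays the 27 targets of PAX5, EBF1 and the E proteins split 13 higher and 3 lower in Rec-1 than in Mino (median 0.46) and 13 higher and 4 lower in SP-49 than in Mino (median 0.44). Between Rec-1 and SP-49 they split 8 higher and 10 lower (median -0.04). Of all genes, 11.7% were called higher and 12.5% lower in Rec-1 than in Mino, 13.1% and 11% in SP-49 than in Mino, and 12.2% and 15% in Rec-1 than in SP-49. The 15 Ikaros relatives and partners split 2 higher and 6 lower in Rec-1 than in Mino (median -0.38), 3 and 2 in SP-49 than in Mino (median -0.08), and 4 and 5 in Rec-1 than in SP-49 (median -0.25). The 11 genes that depend on OCT2, its cofactor or SPIB split 6 higher and 1 lower, 5 and 3, and 3 and 4 in the same pairs (medians 0.55, 0.35 and 0.26).

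There were 6 members that spanned at least 1 log2 unit over the 6 group means, and for each the 2 most similar of 5514 genes with such a span were looked up by Pearson correlation over the 12 arrays. The arrays fall into 3 lines, so these correlations mostly describe which line is high. They were ZNF256 and LAPTM4B for PAX5 (r = 0.987 and 0.986), IFNGR1 and TSEN34 for EBF1 (0.963 and 0.957), and STAP1 and KMO for SPIB (both 0.991). For POU2F2 they were TRIQK and RHOG (0.968 and 0.967), and for BCL6 PPP4R2 and ATP6V1G1 (0.991 and 0.990). ID3 was most like BCL2 and COL9A3 (0.939 and 0.914). BCL2 averaged 6.76 with GSI and 5.71 with Mock in Rec-1, 7.26 and 6.92 in SP-49, and 6.71 and 6.74 in Mino, so that, like ID3, it was lowest on the Rec-1 Mock arrays.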

How the data were processed

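RNA from 12 samples of 3 lines was hybridised to Affymetrix arrays. Per the labels, biotinylated cRNA was made from 5 µg of RNA. The values the authors deposited are taken as log2 signals, 1 table for all arrays, normalized between arrays. The submitters' processing notes name RMA and limma, with no version. Base 2 was inferred from the range of the values. The sources used here give neither detection calls nor scan batches. All 12 columns were used.

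Of 54675 probe sets, 41097 named 1 gene, 1801 several and 11777 none, and symbols were updated by gene number for 41043. limma 3.58.1 in R 4.3.3 (lmFit, eBayes) fitted 1 mean for each of the 6 groups to all 12 arrays (6 residual degrees of freedom and a prior of 5.56), giving 9 two-sided contrasts, each adjusted over all probe sets by Benjamini-Hochberg at 0.05. A gene is given by its brightest probe set, the one with the highest mean among those naming it alone. The median standard error of a GSI minus Mock difference was 0.163. The number of arrays limits the precision. Intervals are at 95%, for single probe sets. No probe set was filtered.

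The named genes are all 10 members with every probe set, up to 4 genes per list and line with the smallest adjusted p, HES1 and MYC as checks of the inhibitor, and for likeness the 2 most correlated genes. The members and lists were chosen with earlier results of these data known, so they are no independent support. MYC fell by 1.53 in Rec-1 and by 1.55 in SP-49 (limma adjusted p = 0.00106 and 0.00756). The SP-49 call was lost on leaving out 1 array in 3 of 12 cases, up to 0.132 without the second SP-49 GSI array. The main fit did not pair arrays by replicate number. The differences between replicates 1 and 2 correlated between GSI and Mock at 0.069 in Rec-1, -0.011 in SP-49 and 0.048 in Mino. With 1 such pair of differences per line, these values cannot decide whether arrays of the same number shared a culture or batch. Figures were drawn with matplotlib 3.10.9 in Python 3.11.15.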

Additional observations from a re-analysis of the deposited data

How the results depend on the processing

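The number of members called in Rec-1 depended on the settings. Against 1 of 10 genes in the report, 3 were called when the probe sets of a gene were averaged (TCF4 and POU2F2 joined ID3, at limma adjusted p of 0.0196 and 0.0225), 4 with an intensity trend and robust prior (3 higher, with PAX5 lower), and 0 with only the arrays compared. Against 3 of 52 probe sets, 8 were called after a second quantile normalization, 12 with the trend, 0 with only the arrays compared, 1 with the replicate block and 1 without the second GSI arrays of Rec-1 and SP-49. The trend also called 2 genes (ID3 and EBF1) and 3 probe sets in SP-49, where the report has 0, and 2 genes and 2 probe sets for Rec-1 minus Mino, also 0 there. Such settings act on every probe set of the array, and the shares of all probe sets called under them are not given here. These counts therefore cannot show whether the members moved more than other genes. Under the replicate block the adjusted p of ID3 in Rec-1 was 0.0168, and without both second GSI arrays it was 0.023. There were 2 reversed directions: with the mean of probe sets, SP-49 minus Mino on Mock arrays was -0.07 for TCF3 (adjusted p = 0.694) and -0.33 for IKZF1 (adjusted p = 0.0253). The causes were not tested. Leaving out each array gave 0 to 1 genes and 0 to 4 probe sets in Rec-1, 0 in SP-49 and Mino, and 0 genes and 0 to 1 probe sets for the differences between lines. Mock calls then ran from 7 to 8 genes and 15 to 22 probe sets (Rec-1 minus Mino), 4 to 6 and 19 to 27 (SP-49 minus Mino), and 4 to 6 and 14 to 22 (Rec-1 minus SP-49). For single genes under settings other than leaving out 1 array, 723 values kept direction and side of the threshold, 39 without a call moved by more than the spread, 11 gained a call, 5 lost one and 2 reversed. Signals near the median of 1.99, as for BCL6 in Mino, limit any fold.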
